A study of Mus musculus with 20 samples.

Results

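Notum, Dkk2, Wif1, Nkd1, Axin2, Lef1, Tcf7 and Prox1 are 8 genes known as targets or feedback inhibitors of Wnt and beta-catenin signalling in intestine with a mutant Apc gene. They were chosen by symbol, with earlier results of these data known. Each symbol is 1 of the 46329 gene rows in the count file of every library. RNA was sequenced from colorectal tumors and from tissue beside them in C57BL/6J mice aged 100 days, to ask what the receptor tyrosine kinase Erbb2 does in colorectal cancer of ApcMin mice. The 4 groups were tumors of Erbb2-deficient mice (ApcMin/+, Erbb2 f/f, Tg(Vil1-cre)), adjacent tissue of Erbb2-deficient mice, tumors of control mice (ApcMin/+, Erbb2 f/f, no cre), and adjacent tissue of control mice, with 5 libraries each. All 4 groups carry the ApcMin allele and the floxed Erbb2tm1Mll allele, the controls are littermates, and cre itself is a further difference between the genotypes. The Villin promoter drives cre in intestinal epithelium, so cells of other lineages in a sample keep Erbb2. The labels call the libraries of a group biological replicates. They do not say whether tumor and adjacent libraries of the same number came from 1 mouse. The p-values describe variation among libraries, which may be partly technical.

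In Wnt signalling, a ligand that binds Frizzled and Lrp5 or Lrp6 receptors stops the destruction complex, built on Apc and Axin, from degrading beta-catenin, which then enters the nucleus and works with transcription factors of the Tcf and Lef family. Loss of Apc leaves beta-catenin active without a ligand, and in ApcMin mice this is the event known to start intestinal adenomas. Many of the genes that beta-catenin switches on are themselves inhibitors of the pathway.

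The value in a row is not known to be the transcript that its symbol names. The libraries were made with a stranded kit, and the row of ND6, the mitochondrial protein gene on the other strand from the rest, held 22599 to 199495 counts per library, against 884 to 5698 counts for the other 12 mitochondrial protein rows together. The ND6 row was the higher in 20 of 20 libraries, and the row of Gapdh, an abundant housekeeping gene, held 0 to 12 counts. Rows thus appear to be counted on the strand opposite their gene, while the strand setting is not given in the sources used here. In GENCODE M21, the exons of Notum meet exons of Notumos and Myadml2os on the other strand, those of Axin2 meet Gm11670, those of Lef1 meet Gm43352 and those of Prox1 meet Prox1os. The span of Tcf7 meets A630014C17Rik in GENCODE and, in RefSeq, Skp1 on the other strand. Nkd1, Dkk2 and Wif1 had no gene listed opposite them. Among these opposite genes, Prox1os and Skp1 have rows of their own in the count files. If rows are counted on the opposite strand, reads of a gene would fall on the row of its partner where exons overlap. With the strand setting not given, reads of a gene and of its opposite partner cannot be told apart.

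Promoter windows in RefSeq (assembly GRCm38.p6), 250 bases before to 50 after a start, were found for 7 of the 8 genes, in 12 windows. The Tcf and Lef factors bind a site built on the letters CTTTG, and CTTTG on either strand stood in a window of 4 of the 7 genes and in no window of Nkd1, Axin2 or Tcf7. For each of the 4 genes 1 window is printed, chosen after the matches were seen, and for Lef1 it is the one with the longer form described below them. Capitals mark CTTTG on either strand, which reads CAAAG on the other. The Prox1 window printed here has none. The Lef1 window lies at chr3:131156044-131156343 (plus strand), the Dkk2 window at chr3:132085042-132085341 (plus strand), the Wif1 window at chr10:121033754-121034053 (plus strand) and the Prox1 window at chr1:190170778-190171077 (minus strand).
Lef1: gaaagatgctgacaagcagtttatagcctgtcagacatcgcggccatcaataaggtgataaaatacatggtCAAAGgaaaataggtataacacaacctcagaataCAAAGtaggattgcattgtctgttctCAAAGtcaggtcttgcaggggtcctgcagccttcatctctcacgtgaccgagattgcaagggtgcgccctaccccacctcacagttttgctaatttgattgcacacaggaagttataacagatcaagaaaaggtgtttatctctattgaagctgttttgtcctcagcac
Dkk2: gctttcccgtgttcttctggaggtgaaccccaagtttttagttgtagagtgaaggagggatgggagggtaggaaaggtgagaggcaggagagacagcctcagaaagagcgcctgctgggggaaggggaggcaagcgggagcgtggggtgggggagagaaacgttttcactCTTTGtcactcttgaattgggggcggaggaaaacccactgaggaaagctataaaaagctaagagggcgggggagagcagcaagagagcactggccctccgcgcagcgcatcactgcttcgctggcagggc
Wif1: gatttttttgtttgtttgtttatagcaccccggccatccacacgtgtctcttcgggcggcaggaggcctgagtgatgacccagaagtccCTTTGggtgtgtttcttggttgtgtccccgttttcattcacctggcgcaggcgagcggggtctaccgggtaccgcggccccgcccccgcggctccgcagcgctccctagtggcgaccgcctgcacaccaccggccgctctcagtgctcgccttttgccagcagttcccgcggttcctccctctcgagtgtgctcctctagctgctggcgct
Prox1: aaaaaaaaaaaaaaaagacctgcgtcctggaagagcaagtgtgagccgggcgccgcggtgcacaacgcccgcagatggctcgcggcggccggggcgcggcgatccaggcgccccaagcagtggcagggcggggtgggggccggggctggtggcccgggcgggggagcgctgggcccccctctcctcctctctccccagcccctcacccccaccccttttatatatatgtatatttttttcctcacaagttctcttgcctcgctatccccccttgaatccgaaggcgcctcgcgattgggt

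CTTTG or CAAAG stood in 7 of the 12 windows (58.3%), against 53.9% of all 32851 windows of this length. A longer form was searched as CTTTGNN on both strands, in which each N had to be A or T, and it contains the shorter letters. It stood in 1 of the 12 windows (8.33%), against 16.9% of all windows. That match was TACAAAG, from position 104 of the Lef1 window, counted from 1 at its 5′ end. The Prox1 window printed here held neither form, unlike the other Prox1 window, and lies inside the span of Prox1os.

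The files held 1071737 to 1944309 counts on genes per library, with a median of 1258396, and these were 2.51% to 3.45% of the reads in a file. The Erbb2 row held 1 to 11 counts in Erbb2-deficient tumors, 5 to 22 in Erbb2-deficient adjacent tissue, 1 to 10 in control tumors and 3 to 12 in control adjacent tissue, and on rows that appear to be of the other strand it does not check the genotype. Control tumors 2 and 3 stood apart over all rows: the chi-square per degree of freedom between 2 control tumors was 5.02 to 7.48 among tumors 1, 4 and 5, 69.6 to 76.3 between tumor 2 and any other, and 19.0 to 26.7 between tumor 3 and tumors 1, 4 and 5. Marker rows of epithelium (8 rows) summed to 18.2 normalized CPM in control tumor 2, with Epcam, Krt8 and 3 others at 0, against 256 to 643 in the 8 tumors other than control tumors 2 and 3. In control tumor 3 the epithelium rows summed to 487 normalized CPM, within the range of those 8 tumors, and none of them was at 0. Marker rows of smooth muscle (10 rows) summed to 532 normalized CPM in control tumor 3, against 161 to 262 in those 8 tumors. Of these the Tagln row, which lies opposite exons of Pcsk7 and Gm48529, gave 482 in control tumor 3, against 151 to 228 in those 8 tumors, and the other 9 rows 49.7, against 9.78 to 40.3. The tests on control tumors are given with all libraries and, for the 8 rows and their overlapping partners and as counts for the pathway lists, without both. Normalized CPM is the count of a row scaled to a common library size, over the 7119 rows that passed a filter on low counts and after TMM scaling.

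In Erbb2-deficient mice all 8 rows were higher in tumors than in adjacent tissue. In control mice 7 of the 8 were, with Tcf7 the exception. Differences were tested with edgeR's quasi-likelihood test over all 7119 rows, with Benjamini-Hochberg adjustment at 0.05. Of all tested rows, 13% were called higher in tumors of Erbb2-deficient mice and 10.7% in tumors of control mice. The lowest tumor exceeded the highest adjacent library for 8 of 8 rows in Erbb2-deficient mice, where 11.9% of all tested rows did so, and for 0 of 8 in control mice, where 3.96% did so. Apart from Tcf7, the rows passed the filter on low counts in tumors alone: the 7.95 CPM it needs in 5 libraries was reached in all 5 Erbb2-deficient tumors, in 3 or 4 control tumors and in no adjacent library. A row that passes in this way had to differ in Erbb2-deficient mice. In control mice the rows were tested through the Erbb2-deficient tumors, since on control libraries alone only Tcf7 passed. These counts thus describe the rows and support nothing further. In tissue samples of mixed cells, fewer cells of a type and less RNA per cell cannot be told apart.

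**Figure D1:**
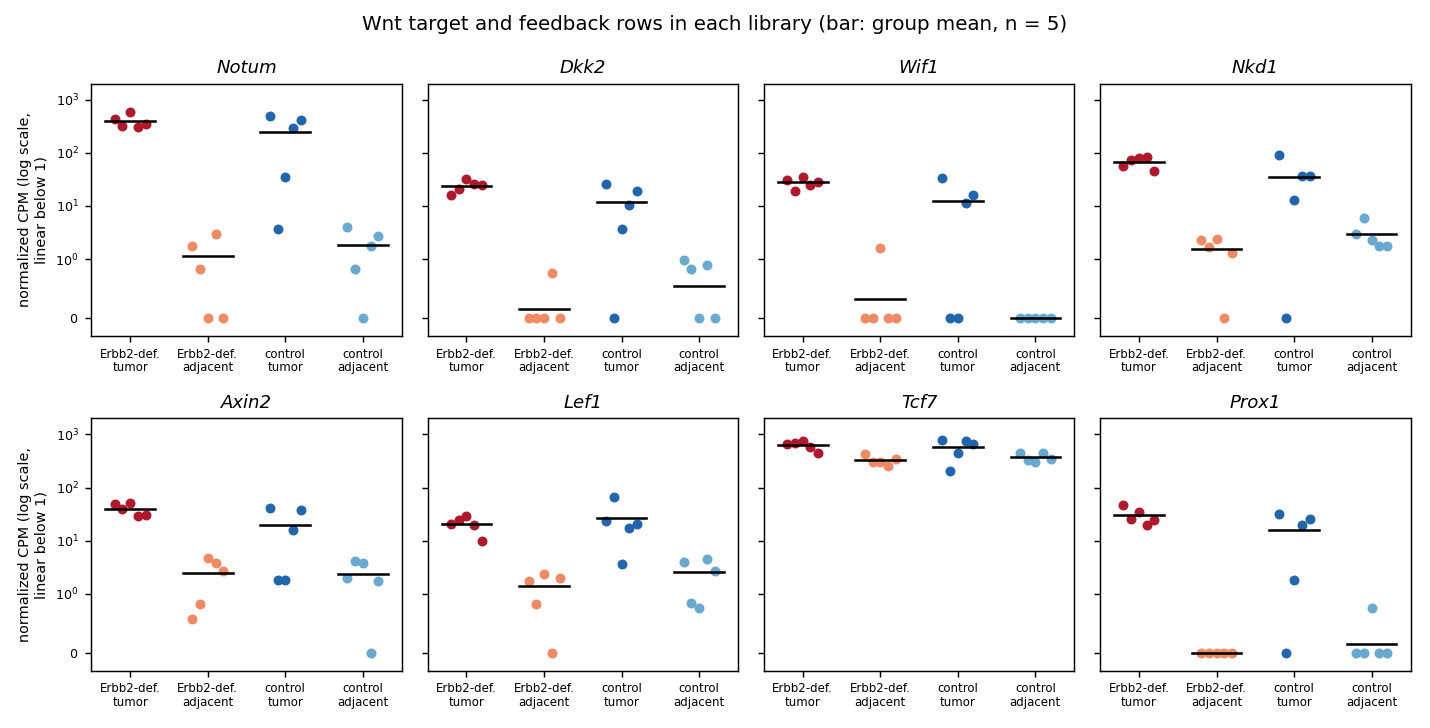
Normalized CPM of the 8 rows (vertical axis, log scale, linear below 1) in each library, 1 point per library and 1 panel per row, with a bar at the mean of the 5 libraries of a group. Every Erbb2-deficient tumor lies above every adjacent library of these mice in all 8 panels, while control tumors reach down to 0 in the Dkk2, Wif1, Nkd1 and Prox1 panels.

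The rows of the 3 secreted inhibitors were at or near 0 beside the tumors and high in most tumors. Notum, a carboxylesterase that removes the lipid from Wnt ligands outside the cell, had 437, 318, 596, 303 and 347 normalized CPM in Erbb2-deficient tumors 1 to 5, against 1.75, 0.831, 0, 3.03 and 0 in adjacent libraries 1 to 5 of these mice. The Notum row was high in each of these tumors and almost empty beside them, with no overlap. It averaged 400.1 ± 121 normalized CPM in tumors and 1.12 ± 1.29 in adjacent tissue of Erbb2-deficient mice (SD, n = 5 each), which is 8.34 ± 1.06 as a log2 fold change (SE, edgeR adjusted p = 1.95e-05). Without Erbb2-deficient adjacent library 4 the log2 fold change was 8.99.

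In control mice the Notum row had 503, 3.63, 35.0, 290.4 and 419 normalized CPM in tumors 1 to 5, against 3.95, 0.840, 0, 1.79 and 2.67 in adjacent libraries 1 to 5. Control tumors 1, 4 and 5 were in the range of the Erbb2-deficient tumors or just under it, control tumor 3 was far lower, and control tumor 2 lay among the adjacent libraries. The means were 250.01 ± 224 normalized CPM in control tumors and 1.85 ± 1.54 in control adjacent tissue (SD, n = 5 each). The log2 fold change was 7.07 ± 1.01 (SE, edgeR adjusted p = 9.76e-05), and 7.76 without control tumors 2 and 3. No promoter window of Notum was found in the table.

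Dkk2, a Dickkopf protein that binds the Lrp5 and Lrp6 co-receptors, had 15.9, 20.9, 32.1, 26.1 and 25.2 normalized CPM in Erbb2-deficient tumors 1 to 5, against 0, 0, 0, 0.757 and 0 in the adjacent libraries. The whole adjacent group held 1 count, in library 4, and the 5 tumors held 165. The ratio of the pooled values was 170 (exact 95% interval 30.0 to 6740, counting error only). The edgeR log2 fold change was 6.64 ± 0.93 (SE, adjusted p = 5.48e-05), and 7.94 without Erbb2-deficient adjacent library 4, which leaves the adjacent group at 0.

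Control tumors 1 to 5 had 25.8, 0, 3.68, 10.5 and 19.5 normalized CPM on the Dkk2 row, against 0.987, 0.840, 0, 0.896 and 0 in control adjacent libraries 1 to 5. Control tumor 2 was empty and the other 4 exceeded every adjacent library. With 75 counts in control tumors and 3 in control adjacent tissue, the pooled ratio was 24.6 (exact 95% interval 8.09 to 122), and 37.2 (12.2 to 184) without control tumors 2 and 3. The edgeR log2 fold change was 4.29 ± 0.86 (SE, adjusted p = 0.00168).

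Wif1, a secreted protein that binds Wnt ligands directly, had 30.2, 19.4, 34.9, 25.3 and 28.8 normalized CPM in Erbb2-deficient tumors 1 to 5, against 0, 0, 1.59, 0 and 0 in adjacent libraries of these mice. Adjacent library 3 alone held counts, 2 in all, and the tumors held 190. The pooled ratio was 97.6 (exact 95% interval 26.7 to 812). By edgeR the log2 fold change was 6.17 ± 1.13 (SE, adjusted p = 0.000865), and 8.15 without adjacent library 3, when every remaining adjacent library was at 0 and the fitted value depends on the prior count.

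In control mice Wif1 had 34.2, 0, 0, 11.4 and 16.1 normalized CPM in tumors 1 to 5 and 0 in all 5 adjacent libraries. Control tumors 2 and 3 were as empty as the adjacent tissue, and the other 3 tumors held all 80 counts. With the adjacent group set at a floor of 3 counts in all, Wif1 was at least 23.7-fold higher in control tumors, and at least 39.4-fold higher without control tumors 2 and 3. Control tumor 1 held 49 of the 80 counts, and without it the bound was 13.2-fold (edgeR adjusted p = 0.00406 over all control tumors).

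The rows of the feedback inhibitors inside the cell were higher in tumors as well. Nkd1, which binds Dishevelled and dampens the signal from the receptor, had 57.4, 73.1, 81.0, 82.6 and 44.7 normalized CPM in Erbb2-deficient tumors 1 to 5, against 2.33, 1.66, 2.38, 0 and 1.32 in the adjacent libraries. Every adjacent library lay far under the lowest tumor. The means were 67.8 ± 16.3 in Erbb2-deficient tumors and 1.54 ± 0.970 in adjacent tissue (SD, n = 5 each), and the log2 fold change was 5.36 ± 0.80 (SE, edgeR adjusted p = 9.41e-05).

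Nkd1 had 91.4, 0, 12.9, 36.2 and 36.4 normalized CPM in control tumors 1 to 5, against 2.96, 5.88, 2.29, 1.79 and 1.78 in control adjacent libraries 1 to 5. Control tumor 1 was the highest of all 10 tumors, and control tumor 2 was at 0, under every adjacent library of its genotype. On the log2 scale the fold change was 3.55 ± 0.75 (SE, edgeR adjusted p = 0.00241), 4.16 without control tumors 2 and 3, and 2.82 without control tumor 1.

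Axin2, a scaffold of the destruction complex and a widely used readout of the pathway, had 48.4, 38.8, 51.0, 29.0 and 31.0 normalized CPM in Erbb2-deficient tumors 1 to 5, against 0.582, 0.831, 4.76, 3.78 and 2.65 in adjacent libraries of these mice. The groups did not overlap. The means were 39.6 ± 9.91 in tumors and 2.52 ± 1.82 in adjacent tissue of Erbb2-deficient mice (SD, n = 5 each), and the log2 fold change was 3.95 ± 0.74 (SE, edgeR adjusted p = 0.000595).

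For Axin2, control tumors 1 to 5 had 40.5, 1.82, 1.84, 16.2 and 38.1 normalized CPM, against 1.97, 4.20, 3.82, 0 and 1.78 in control adjacent libraries 1 to 5. Tumors 2 and 3 lay within the adjacent range and the other 3 above it. The log2 fold change was 3.0 ± 0.76 (SE, edgeR adjusted p = 0.00802), and 3.66 without control tumors 2 and 3.

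**Figure D2:**
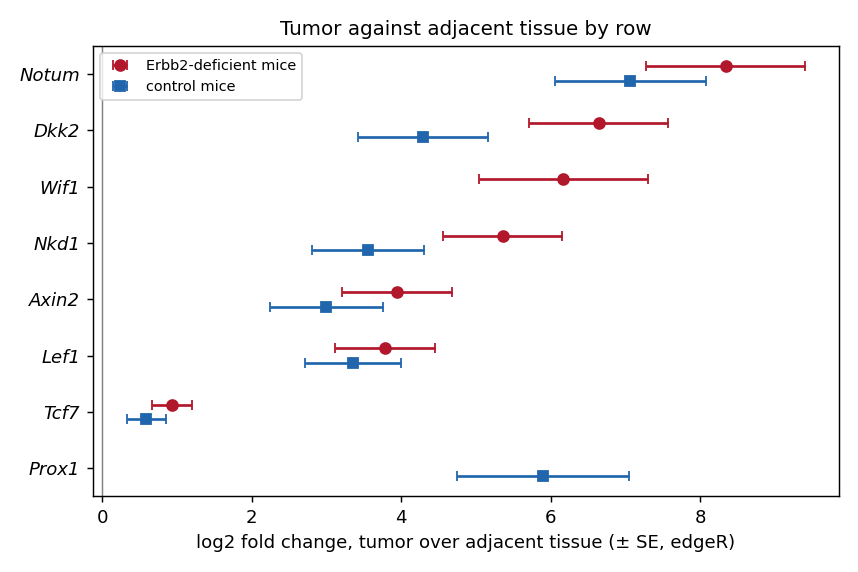
Log2 fold change of tumor over adjacent tissue for each row (horizontal axis) with its standard error from edgeR, as circles for Erbb2-deficient mice and squares for control mice (n = 5 libraries a group). Values run from 0.59 for Tcf7 in control mice to 8.34 for Notum in Erbb2-deficient mice, and Wif1 in control mice and Prox1 in Erbb2-deficient mice have no marker because the adjacent group was at 0.

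Among the transcription factors, Lef1, which binds DNA together with beta-catenin, had 20.4, 24.6, 29.3, 19.4 and 10.1 normalized CPM in Erbb2-deficient tumors 1 to 5, against 1.75, 0.831, 2.38, 0 and 1.98 in the adjacent libraries. Every tumor exceeded every adjacent library. The means were 20.8 ± 7.15 in Erbb2-deficient tumors and 1.39 ± 0.963 in adjacent tissue (SD, n = 5 each), and the log2 fold change was 3.79 ± 0.67 (SE, edgeR adjusted p = 0.000399).

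Control tumors 1 to 5 had 23.7, 66.3, 3.68, 17.1 and 20.3 normalized CPM on the Lef1 row, against 3.95, 0.840, 0.765, 4.48 and 2.67 in control adjacent libraries 1 to 5. Control tumor 2 held the highest Lef1 value of all 20 libraries, and control tumor 3 lay within the adjacent range. As a log2 fold change, control tumors were at 3.35 ± 0.64 (SE, edgeR adjusted p = 0.00111), and at 2.67 without control tumor 2 and 3.0 without control tumors 2 and 3.

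Lef1 is also known as a factor of developing and naive lymphocytes. In control tumor 2 the 12 T cell marker rows summed to 88.1 normalized CPM with 1 of 12 at 0, against 4.19 to 17.9 in the 8 tumors other than control tumors 2 and 3. Cd3d, a chain of the T cell receptor complex, had 15.4 normalized CPM in control tumor 2 and 0 in those 8 tumors. The 10 B cell marker rows summed to 752 normalized CPM in control tumor 2, with none at 0, against 303 to 476 in those 8 tumors. Among them the Fcer2a row, whose span lies opposite Trappc5, had 479 normalized CPM in control tumor 2 and up to 460 in those 8 tumors. Cd79a, a chain of the B cell receptor complex, had 39.0 normalized CPM in control tumor 2 and up to 4.24 in those 8 tumors. Not every listed row was raised there: Ms4a1 had 3.63 normalized CPM against up to 6.71, Bcl11b 6.35 against up to 9.07 and Il7r 0.908 against up to 0.952. The 7 macrophage marker rows summed to 62.6 normalized CPM in control tumor 2, against 11.9 to 33.5 in those 8 tumors. The part of lymphocytes in the Lef1 value was not tested.

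**Figure D3:**
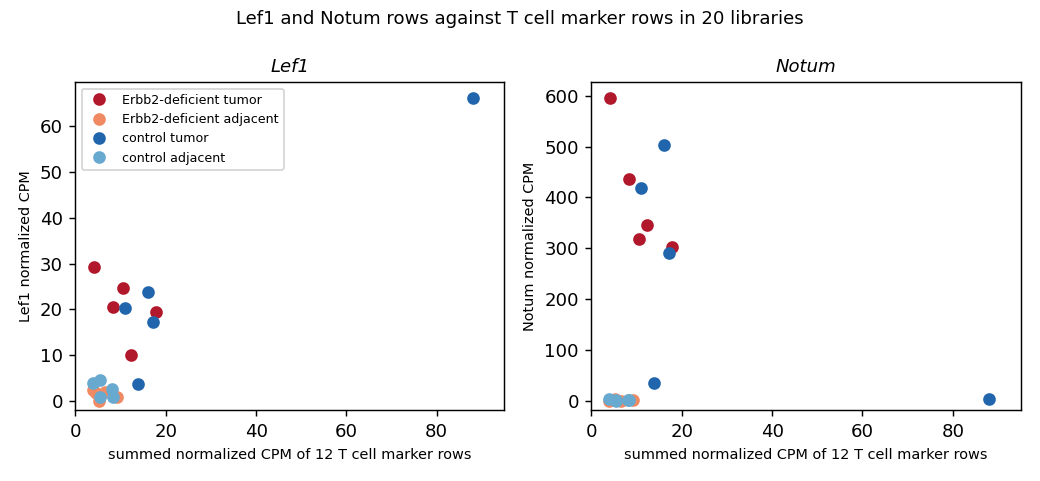
Normalized CPM of Lef1 (left) and Notum (right) on the vertical axes against the summed normalized CPM of 12 T cell marker rows on the horizontal axes, 1 point per library. Control tumor 2 is the point at 88.1 on the horizontal axis, with Lef1 at 66.3 and Notum at 3.63 normalized CPM.

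Tcf7, another factor of the Tcf and Lef family and, like Lef1, abundant in T cells, was the one row well above 0 in every library. It had 659.6, 677, 749, 572 and 455 normalized CPM in Erbb2-deficient tumors 1 to 5, against 431, 300.0, 302, 259 and 339 in the adjacent libraries. The lowest tumor, library 5, was just above the highest adjacent library. The means were 622 ± 113 in Erbb2-deficient tumors and 326 ± 65.2 in adjacent tissue (SD, n = 5 each), and the log2 fold change was 0.93 ± 0.27 (SE, edgeR adjusted p = 0.0128).

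In control mice Tcf7 had 769, 208, 445, 745 and 672 normalized CPM in tumors 1 to 5, against 449, 323, 305, 454 and 351 in adjacent libraries 1 to 5. Control tumor 2 was the lowest of all 20 libraries, and control tumor 3 lay within the adjacent range. The log2 fold change of 0.59 ± 0.26 did not pass (SE, edgeR adjusted p = 0.115). Without control tumor 2 it was 0.79 (adjusted p = 0.00511), and without control tumors 2 and 3 it was 0.95 (adjusted p = 0.000794). The span of Skp1 overlaps that of Tcf7 in RefSeq. With rows apparently of the opposite strand, reads of Skp1 may lie on the Tcf7 row. Their part in the Tcf7 values was not tested. The Skp1 row itself had 1 to 14 counts per library. It averaged 8.51 ± 2.09 normalized CPM in tumors and 4.98 ± 3.59 in adjacent tissue of Erbb2-deficient mice, which is 0.76 ± 0.48 as a log2 fold change (SE, edgeR adjusted p = 0.253), and 0.43 ± 0.55 in control mice (adjusted p = 0.612), or 0.82 without control tumors 2 and 3.

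Prox1, a homeobox factor described as a beta-catenin target in colon adenomas, had 46.8, 26.1, 34.2, 20.1 and 24.5 normalized CPM in Erbb2-deficient tumors 1 to 5, against 0 in all 5 adjacent libraries. With 207 counts in these tumors and none in the adjacent group, Prox1 was at least 71.0-fold higher, with the empty group set at a floor of 3 counts in all (edgeR adjusted p = 0.000187). In control mice it had 32.1, 0, 1.84, 19.99 and 25.4 normalized CPM in tumors 1 to 5, against 0, 0, 0.765, 0 and 0 in the adjacent libraries. Control tumor 2 was as empty as 4 of the adjacent libraries, and control tumor 3 held 2 counts. The pooled ratio of 99 counts in tumors to 1 count in control adjacent tissue was 97.3 (exact 95% interval 17.1 to 3880), and 152 (26.7 to 6080) without control tumors 2 and 3. By edgeR the log2 fold change was 5.90 ± 1.14 (SE, adjusted p = 0.00196), and 7.35 without control adjacent library 3, which leaves the adjacent group at 0.

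Prox1os, the antisense gene that overlaps Prox1 exons, moved the same way and at higher values. Its row had 210.1, 97.0, 289.8, 127 and 140.5 normalized CPM in Erbb2-deficient tumors 1 to 5, against 0, 1.66, 1.59, 5.30 and 1.32 in the adjacent libraries. The log2 fold change was 6.44 ± 0.93 (SE, edgeR adjusted p = 7.12e-05), and 7.21 without Erbb2-deficient adjacent library 4. In control mice the Prox1os row had 78.9, 0, 27.6, 106 and 169 normalized CPM in tumors 1 to 5, against 0.987, 0.840, 2.29, 1.79 and 0 in adjacent libraries, which is 5.87 ± 0.97 as a log2 fold change (SE, edgeR adjusted p = 0.00038), and 6.49 without control tumors 2 and 3. Both rows were at 0 in control tumor 2. If rows are counted on the opposite strand, as they appear to be, reads of Prox1 would fall on the Prox1os row where exons overlap. Reads of Prox1os would then fall on the Prox1 row. The strand setting is not given, and which gene gave the reads of either row was not tested.

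**Figure D4:**
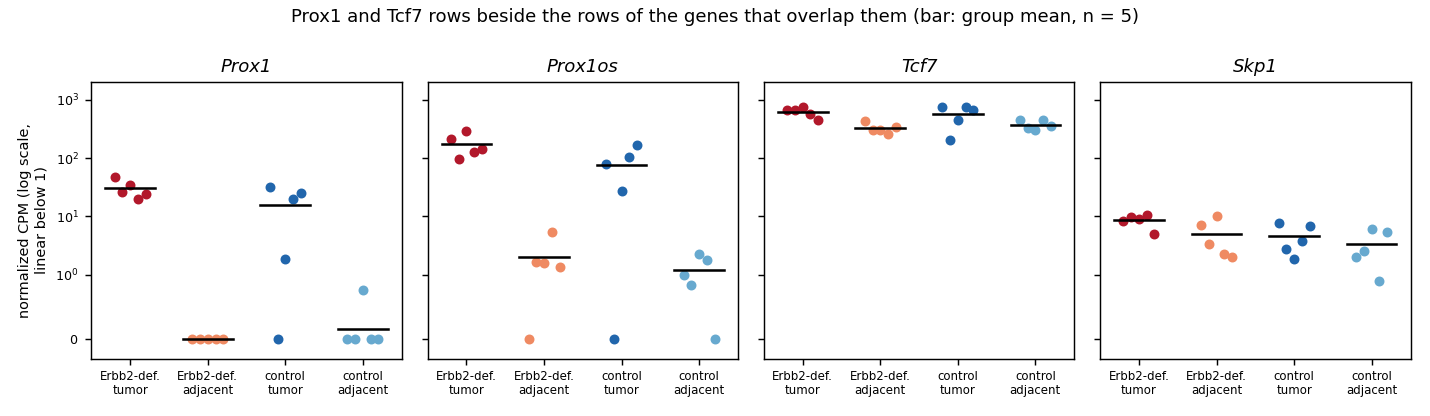
Normalized CPM (vertical axis, log scale, linear below 1) of the Prox1 and Tcf7 rows and of the rows of the overlapping genes Prox1os and Skp1, 1 point per library, with a bar at the group mean (n = 5). Prox1 and Prox1os are both high in tumors and near 0 in adjacent tissue, while Tcf7 runs from 208 normalized CPM in control tumor 2 to 769 in control tumor 1, and Skp1 reaches 10.4 at most.

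Among the 10 tumors, the rows varied more in controls. The coefficient of variation ran from 18.2% (Tcf7) to 34.7% (Prox1) over the 5 Erbb2-deficient tumors, against 42.0% (Tcf7) to 114% (Wif1) over the 5 control tumors. Over control tumors 1, 4 and 5 alone it ran from 6.91% (Tcf7) to 58.5% (Wif1). The difference in spread was not tested. Control tumor 2 was at 0 for Nkd1, Dkk2, Wif1 and Prox1 and at 0.609% of the highest tumor for Notum, while it was the highest for Lef1. Control tumor 3 held 14.1% or less of the highest tumor for 7 rows and 57.9% for Tcf7.

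**Figure D5:**
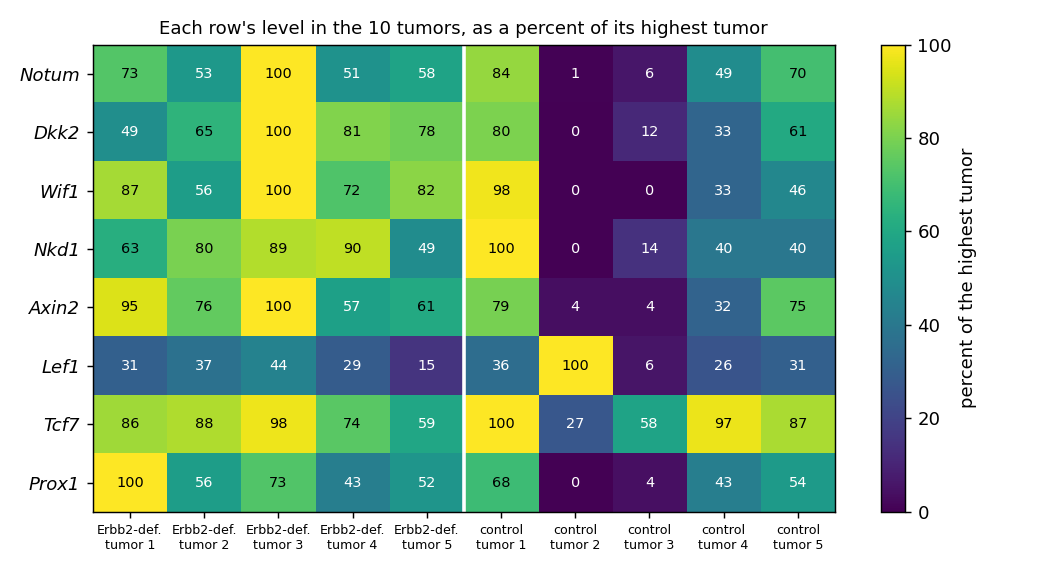
Each row's normalized CPM in the 10 tumors as a percent of its highest tumor, rounded to whole percents in the cells (color scale 0 to 100), with Erbb2-deficient tumors left of the white line and control tumors right of it. Control tumor 2 reads 0 to 4 in 6 rows, 27 for Tcf7 and 100 for Lef1, and control tumor 3 reads 14 or less in 7 rows and 58 for Tcf7.

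Between genotypes, no row of the 8 passed the test in tumors. The log2 fold change of Erbb2-deficient over control tumors was 0.68 for Notum (95% interval -0.77 to 2.13, edgeR adjusted p = 0.772). It was 0.98 for Dkk2 (-0.18 to 2.15, edgeR adjusted p = 0.535) and 1.13 for Wif1 (-0.42 to 2.68, adjusted p = 0.601). The secreted inhibitors thus had intervals that run from a lower to a several-fold higher level in Erbb2-deficient tumors.

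The feedback inhibitors inside the cell had log2 fold changes of 0.92 for Nkd1 (-0.33 to 2.18, edgeR adjusted p = 0.601) and 0.99 for Axin2 (-0.28 to 2.26, adjusted p = 0.575). The factors had -0.34 for Lef1 (-1.42 to 0.75, edgeR adjusted p = 0.88), 0.13 for Tcf7 (-0.42 to 0.68, adjusted p = 0.906) and 0.91 for Prox1 (-0.46 to 2.29, adjusted p = 0.64). Of all 7119 rows, 0% were called in either direction by edgeR, 817 had an unadjusted p under 0.05, and DESeq2 called 5 higher and 21 lower in Erbb2-deficient tumors, none of them among the 8.

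Without control tumors 2 and 3 the log2 fold changes of Erbb2-deficient over control tumors were 0.022 for Notum, 0.39 for Dkk2, 0.45 for Wif1, 0.34 for Nkd1 and 0.35 for Axin2. They were 0.058 for Lef1, -0.19 for Tcf7 and 0.26 for Prox1. Lef1 and Tcf7 thereby changed sign, and the other 6 came nearer to 0. Without control tumor 1, the highest control tumor for both rows, the values moved the other way, to 1.66 for Nkd1 (edgeR adjusted p = 0.218) and 1.98 for Wif1 (adjusted p = 0.256). Marker rows of epithelium summed to 353 to 643 normalized CPM in Erbb2-deficient tumors and 18.2 to 487 in control tumors, and the part of sample makeup in the genotype values was not tested.

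In adjacent tissue 7 of the 8 rows were near the detection limit in both genotypes, at 0 to 4.76 normalized CPM in Erbb2-deficient mice and 0 to 5.88 in control mice. Tcf7 averaged 326 ± 65.2 normalized CPM in Erbb2-deficient and 377 ± 70.5 in control adjacent tissue (SD, n = 5 each), a log2 fold change of -0.21 (-0.76 to 0.34, edgeR adjusted p = 0.965). None of the 8 passed. Of all rows, 0% were called by edgeR, 418 had an unadjusted p under 0.05, and DESeq2 called 0 higher and 5 lower.

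The tumor-adjacent difference itself was compared between genotypes as an interaction, the difference in Erbb2-deficient mice minus that in control mice. It was 1.27 on the log2 scale for Notum (95% interval -1.90 to 4.45), 2.35 for Dkk2 (-1.11 to 5.81), 1.80 for Nkd1 (-0.53 to 4.13), 0.95 for Axin2 (-1.32 to 3.22), 0.43 for Lef1 (-1.46 to 2.32) and 0.34 for Tcf7 (-0.44 to 1.12). For Wif1 and Prox1 no size is given, since an adjacent group was at 0. No row of the 8 passed (edgeR adjusted p of 1 for each). Of all rows, 0% were called, 290 had an unadjusted p under 0.05, and DESeq2 called none. Without control tumors 2 and 3 the interaction was 0.64 for Notum, 1.78 for Dkk2, 1.25 for Nkd1, 0.36 for Axin2, 0.84 for Lef1 and 0.043 for Tcf7. Single libraries moved it too: without Erbb2-deficient adjacent library 4 it was 1.94 for Notum and 3.66 for Dkk2, without control tumor 1 it was 2.56 for Nkd1, and without control tumor 2 it was 1.13 for Lef1. The passing of Tcf7 in Erbb2-deficient mice alone is therefore not shown to be a difference between genotypes.

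Other genes of the pathway moved in both directions. Of all tested rows, 14.5% were called lower in tumors of Erbb2-deficient mice and 10.9% in tumors of control mice. Among 28 other targets, 9 passed the filter, of which 3 were called higher and 2 lower in Erbb2-deficient tumors than in adjacent tissue, and 3 higher and 1 lower in control mice. Without control tumors 2 and 3, 12 passed the filter, with 7 higher and 1 lower in control mice. Of all 7946 rows tested in that setting, 1168 were called higher and 1376 lower in control mice. Sox4, a progenitor transcription factor whose row lies opposite Gm26735, averaged 81.9 ± 11.03 normalized CPM in tumors, against 7.34 ± 2.69 in adjacent tissue of Erbb2-deficient mice (log2 fold change 3.47 ± 0.43 SE, edgeR adjusted p = 1.45e-05). In control mice its log2 fold change was 2.26 ± 0.41 (adjusted p = 0.000663). The Tcfl5 row, which lies opposite exons of the collagen gene Col9a3, had log2 fold changes of 4.31 ± 0.80 in Erbb2-deficient mice (adjusted p = 0.000584) and 5.46 ± 0.88 in control mice (adjusted p = 0.000267).

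Rnf43, a ubiquitin ligase that removes Frizzled receptors and so is itself a feedback inhibitor, averaged 11.4 ± 2.73 normalized CPM in tumors, against 2.98 ± 2.93 in adjacent tissue of Erbb2-deficient mice (log2 fold change 1.94 ± 0.64 SE, edgeR adjusted p = 0.029). It averaged 16.5 ± 17.4 normalized CPM in tumors, against 2.76 ± 1.07 in adjacent tissue of control mice (log2 fold change 2.53 ± 0.66 SE, adjusted p = 0.0094), with control tumors spread from 4.60 to 47.2 normalized CPM. Cdx1, a homeobox factor of differentiated gut epithelium, was lower, with log2 fold changes of -1.78 ± 0.51 in Erbb2-deficient mice (adjusted p = 0.0136) and -1.62 ± 0.53 in control mice (adjusted p = 0.0335). Rgmb, a co-receptor for bone morphogenetic proteins named here after its values were seen, was the other row called lower in Erbb2-deficient mice (-2.59 ± 0.64, adjusted p = 0.00512).

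Of 18 rows of the destruction complex and beta-catenin, 9 passed the filter, with 3 called higher and 3 lower in Erbb2-deficient mice and 2 higher and 3 lower in control mice, also without control tumors 2 and 3, when 10 passed. Ctnnbip1, an inhibitor of beta-catenin whose row lies opposite Gm13066, averaged 17.5 ± 3.67 normalized CPM in tumors, against 89.6 ± 27.2 in adjacent tissue of Erbb2-deficient mice (log2 fold change -2.35 ± 0.50 SE, edgeR adjusted p = 0.00164), and its log2 fold change in control mice was -2.66 ± 0.51 (adjusted p = 0.00116). The casein kinase row Csnk1d, opposite Gm28192, had 1709 ± 557 normalized CPM in tumors, against 172 ± 49.3 in adjacent tissue of Erbb2-deficient mice (3.31 ± 0.58 log2, adjusted p = 0.000375), and 2.62 ± 0.56 log2 in control mice (adjusted p = 0.00273). In RefSeq the span of Csnk1d also meets that of Slc16a3. The part of Slc16a3 reads in these values was not tested. Csnk1e, opposite Gm16059, was higher by 1.79 ± 0.50 log2 in Erbb2-deficient mice (adjusted p = 0.0113) and by 2.33 ± 0.58 in control mice (adjusted p = 0.00694). Gsk3b, the kinase that marks beta-catenin for degradation, was lower, at -1.05 ± 0.33 log2 in Erbb2-deficient mice (adjusted p = 0.0235) and -1.24 ± 0.35 in control mice (adjusted p = 0.015). The remaining calls, named after their values were seen, were Ctnnb1, beta-catenin itself, and Dvl1, a Dishevelled protein. The Ctnnb1 row, opposite Ulk4, was higher in Erbb2-deficient mice (1.24 ± 0.36 log2, edgeR adjusted p = 0.0133) and was at 0.80 ± 0.38 in control mice (adjusted p = 0.136). The Dvl1 row, opposite Tas1r3, was lower in both, at -1.47 ± 0.33 log2 in Erbb2-deficient mice (adjusted p = 0.00253) and -1.07 ± 0.33 in control mice (adjusted p = 0.023).

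Of 12 nuclear partners, 7 passed, with 2 called higher and 1 lower in each genotype, and without control tumors 2 and 3 there were 2 higher and 2 lower of 8 in control mice. Tcf7l1, a family member known mainly as a repressor, was the lower one and averaged 135 ± 106 normalized CPM in tumors, against 2425 ± 458 in adjacent tissue of Erbb2-deficient mice (log2 fold change -4.16 ± 0.79 SE, edgeR adjusted p = 0.000731). In control mice it averaged 56.1 ± 47.5 normalized CPM in tumors, against 1701 ± 959.8 in adjacent tissue (-4.92 ± 0.83 log2, adjusted p = 0.000408). The Tcf7l1 row lies opposite exons of Gm15401. The co-repressor rows Tle1, opposite Gm11250, and Tle3 were higher, at 2.54 ± 0.49 and 1.31 ± 0.46 log2 in Erbb2-deficient mice (adjusted p = 0.000849 and 0.037) and at 1.39 ± 0.47 and 1.44 ± 0.51 in control mice (adjusted p = 0.0411 and 0.047). The Bcl9l row, which lies opposite exons of Cxcr5 and Gm47205, did not pass in either genotype (edgeR adjusted p = 0.428 in Erbb2-deficient and 0.0893 in control mice). Its log2 fold change in control mice was 2.16 with all libraries and -0.91 without control tumors 2 and 3. The part of Cxcr5 reads in these values was not tested.

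The rows upstream of the pathway gave few calls. Of 19 receptors 5 passed the filter and none was called in either genotype, with Kremen2, Lrp6, Fzd1 and Lgr4 at edgeR adjusted p values of 0.144 to 0.676 in control mice. The Kremen2 row, opposite 9530082P21Rik, was lower there without control tumors 2 and 3 (-1.74 log2, against -1.31 with all, edgeR adjusted p = 0.000853). Of 23 ligands only Wnt2b passed, at -0.46 ± 0.27 log2 in Erbb2-deficient mice (adjusted p = 0.217) and -0.78 ± 0.28 in control mice, where it was called lower (adjusted p = 0.0478) but not without control tumors 2 and 3 (-0.82, adjusted p = 0.0633). The span of Wnt2b overlaps that of St7l in RefSeq. Of 13 other secreted inhibitors 2 passed. Sfrp2, a Wnt-binding protein of stromal cells whose row lies opposite Gm26771, was higher in Erbb2-deficient tumors (2.67 ± 0.56 log2, adjusted p = 0.00146), and in control mice its value was 1.15 ± 0.51 (adjusted p = 0.115), and 1.48 without control tumors 2 and 3, where it passed (adjusted p = 0.017). The median log2 fold change of the 8 rows was 5.76 in Erbb2-deficient mice, where the median of all tested rows was -0.06, and 3.92 in control mice, where it was 0.07. Apart from Tcf7 these rows passed the filter on low counts in tumors alone and so had to differ in Erbb2-deficient mice. In control mice they were tested through the Erbb2-deficient tumors, since on control libraries alone only Tcf7 passed. The medians describe the rows and support nothing further. They include the fitted values of Prox1 in Erbb2-deficient and Wif1 in control mice, where the adjacent group was at 0. Of 10 smooth muscle marker rows, 10 were called lower in tumors in each genotype. Their sums were 161 to 262 normalized CPM in tumors and 1152 to 1459 in adjacent tissue of Erbb2-deficient mice, and 162 to 532 in tumors and 1151 to 2589 in adjacent tissue of control mice. Without the Tagln row they were 9.78 to 40.3 in tumors and 711 to 978 in adjacent tissue of Erbb2-deficient mice, and 12.7 to 49.7 in tumors and 747 to 1947 in adjacent tissue of control mice. The part of muscle content in the tumor values was not tested.

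The rows most like the 8 across tumors were found by Spearman's rho with the mean of their standardized log2 values over the 10 tumors. Rows of predicted genes, with names of Gm and a number, LOC or Rik, were left out of this ranking. Plxnb1, a semaphorin receptor whose row lies opposite Gm7628, and Tafa5 each had a rho of 0.976, H13, a signal peptide peptidase opposite Gm26841, had 0.964, and Lama5, a laminin chain, and Tmem150b, opposite Brsk1, each had 0.952. Without control tumor 2 these were 0.967 for Plxnb1 and Tafa5, 0.95 for H13 and 0.933 for Lama5 and Tmem150b over 9 tumors. The 8 rows themselves, each of which is part of the mean, ran from 0.394 (Lef1) to 0.952 (Axin2) over 10 tumors, and Lef1 stood at 0.917 without control tumor 2. These values describe 10 libraries that share their depth and makeup between rows.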

How the data were processed

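The deposited files, 1 for each library, hold the authors' raw counts of reads by gene symbol, with 46329 gene rows and 5 summary rows that entered neither library sizes nor tests. Tools named per the submitters' processing notes are HTSeq (2.0.2), HISAT2 (2.2.1), Trimmomatic and DESeq2, with build mm39. The strand setting is not given in the sources used here. Reads on no counted feature were 78.6% to 85.1% of a file. Groups and replicate numbers came from the labels. No pair of replicates was alike enough to be 1 library (chi-square per degree of freedom 5.01 to 76.3).

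The filter on low counts was filterByExpr over groups, minimum count 10, and scaling was by TMM. A means model of the 4 groups over all 20 libraries was fitted in edgeR (4.0.16, under R 4.3.3) with robust quasi-likelihood tests, after the step had been tested on simulated data. SEs were taken as the absolute log2 fold change over the root of the F statistic, and 95% intervals use the fit's degrees of freedom. Where a group held 1 to 3 counts, an exact interval of the ratio of pooled counts is given, and where it held 0, a floor of 3 counts over the group. Intervals and floors cover counting error only. Alternatives were DESeq2 version 1.42.0, RLE scaling, no filter, only the groups compared, libraries left out and a replicate block. RLE and plain CPM scaling were also tried on the mean levels. For rows of the pathway lists, leaving out control tumors 2 and 3 together was the one alternative run.

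The 8 genes, the gene lists and the alternatives were chosen with earlier results of these data known. Beside the 8 genes and their overlapping partners, up to 4 rows per pathway list were named. These had the smallest p in control tumors against adjacent tissue. The 5 rows most like the 8, with predicted genes left out, were also named. GENCODE M21 and RefSeq GRCm38.p6 are of another build than the counts, and were used for names, overlaps and promoter windows. Marker lists of fibroblasts (6 of 9 passed; 3 higher in Erbb2-deficient and 0 in control tumors than in adjacent tissue), macrophages (1 of 7 passed, none called), endothelium (0 of 5 passed), Paneth-type cells (1 of 5 passed; 1 higher in each genotype) and proliferation (3 of 8 passed; 1 higher in Erbb2-deficient and 2 in control tumors) were also counted, with all libraries.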

Additional observations from a re-analysis of the deposited data

Results flagged for a closer look

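Of 32 sets of 5 libraries (8 rows in 4 groups), 4 held a library that lay far from the other 4, where chance gives about 1 in 20 for values spread as a normal distribution. That rate does not hold for these counts, since a single library with any count among 4 at 0 always stands out and a set with all 5 at 0 never can. All 4 were highest values in adjacent tissue and rest on few counts. The Dkk2 row had 0.757 normalized CPM in Erbb2-deficient adjacent library 4, from 1 count, with the other 4 at 0. The Wif1 row had 1.59 normalized CPM in Erbb2-deficient adjacent library 3, from 2 counts, with the other 4 at 0. The Nkd1 row had 5.88 normalized CPM in control adjacent library 2, from 7 counts, against 1.78 to 2.96 in the other 4. The Prox1 row had 0.765 normalized CPM in control adjacent library 3, from 1 count, with the other 4 at 0.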

How the results depend on the processing

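In Erbb2-deficient mice the tumor-adjacent values of the 8 rows, Prox1os and Skp1 kept their direction and call under the alternatives of the test that gave a value (DESeq2, RLE scaling, no filter, only the groups compared, the replicate block, single libraries left out, and control tumors 2 and 3 left out). In control mice Tcf7 passed without control tumor 2 (0.79) and without control tumors 2 and 3 (0.95), and no other of the 8 rows changed its call except under the replicate block and in the fit on control groups alone. The fit on control groups alone called 0 of the 8 rows, because only Tcf7 passed its filter, and 275 rows higher and 318 lower, against 764 and 776 in the fit of all groups. Without control tumors 2 and 3 together, 7946 rows were tested, against 7119 with all libraries. Of the 7946 rows, 1446 were called higher in Erbb2-deficient tumors than in adjacent tissue (929 with all libraries). In control mice 1168 were called higher and 1376 lower.

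Between tumors of the genotypes, Lef1 was 0.35 without control tumor 2 (range over single libraries left out -0.61 to 0.35) and 0.058 without control tumors 2 and 3, against -0.34 with all. Tcf7 was -0.073 without control tumor 2 (range -0.073 to 0.26) and -0.19 without both, against 0.13. DESeq2 called 5 rows higher and 21 lower there. In adjacent tissue Axin2 was 0.038 with all libraries, -0.013 with no filter, -0.0038 without control tumors 2 and 3, and -0.32 to 0.31 over single libraries left out. Prox1os was 0.61, and -0.17 to 0.98 over single libraries left out. Rows called lower there were 5 by DESeq2, 1 with no filter, 1 without control tumors 2 and 3, and 0 to 1 over single libraries left out, against 0. The interaction of Wif1, which rests on an adjacent group at 0, was -0.85, 0.31 by DESeq2, and -1.15 to 1.14 over single libraries left out. The cause of these changes was not tested. Low depth limits adjacent tissue, where 7 of the 8 rows held few counts.

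With the replicate number as a block, 6 of the 8 rows were called in control mice, where Axin2 was at 2.46 (edgeR adjusted p = 0.0715), and no other call of the 8 changed. Deviations of libraries with the same number correlated at -0.26 to 0.433 between groups, and the own number gave the best match in 6 of 20 cases. These cases include pairs of groups of different genotype, which cannot be 1 mouse. Within a genotype, the own number matched best for control tumors 1, 3 and 4 (0.37, 0.331 and 0.15) but not for 2 and 5. It did so for Erbb2-deficient tumor 5 (0.228) but not for tumors 1 to 4. The check thus cannot decide whether the numbers pair the libraries, and the main fit has no block.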
